A study of Mus musculus with 30 samples.

Results

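The genes described here are 10 transcripts that the fetal liver makes in quantity and the adult liver largely shuts off, or that belong to the same imprinted domains: *H19*, *Igf2*, *Dlk1*, *Meg3*, *Rian*, *Mirg*, *Peg3*, *Grb10*, *Afp* and *Gpc3*. They were found by symbol, 10 of the 55450 genes in the count table, and were chosen from genotype results in these same livers, so every knockout value below is a description. Imprinted genes are read from the maternal or the paternal copy alone. *H19*, a noncoding RNA, and *Igf2*, a fetal growth factor, share enhancers and are read from opposite parental copies. The paternal *Dlk1* and the maternal noncoding RNAs *Meg3*, *Rian* and *Mirg* share a second imprinted domain in the same way. Oncofetal genes such as *Afp* and *Gpc3* fall silent in hepatocytes after birth and are known for their return in liver tumors.

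Liver poly(A) RNA was sequenced from 30 mice, 5 per group in 6 groups, with 1 stranded library per mouse. All mice carried floxed *Cebpa* alleles and all ate HFCFD, a diet rich in fat, cholesterol and fructose. Controls were *Cebpa* fl/fl mice without Cre. In HFCFD2W, fed for 2 weeks, the knockouts were *Cebpa* ΔHep mice, in which the albumin promoter drives Cre in hepatocytes from before birth. In HFCFD8W+T10D and HFCFD12W+T10W the knockouts were *Cebpa* ΔHep,ERT2 mice, whose albumin-driven Cre needs tamoxifen. The first of these experiments is labelled 8 weeks of HFCFD, with tamoxifen in the last 10 days. Whether those 10 days lie within the 8 weeks or follow them is not given in the sources used here. The second ran for 22 weeks (12 weeks, then 10 weeks with tamoxifen). The study used males on a C57BL/6N background, and ages are not given in the sources used here. Cre line, diet time and tamoxifen differ together with the experiment, so these factors cannot be told apart between experiments.

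Library totals ran from 7996123 to 10257347 counts. *Cebpa*, which encodes the transcription factor removed, kept 2.68%, 11.9% and 18.6% of its control level in the HFCFD2W, HFCFD8W+T10D and HFCFD12W+T10W knockouts, and no knockout mouse reached any control mouse. These are whole livers, in which fewer cells of a type and less RNA per cell cannot be told apart. Levels are given as counts, or as CPM, counts scaled to the library total after TMM adjustment (the trimmed mean of M values) over all 30 libraries, with the SD of 5 mice. Where none of a group's 5 libraries exceeded 3 counts of a gene, the group is called at the floor. For such a group the fold is the ratio of summed counts with its exact 95% counting interval, which covers counting error only. Other folds are log2 fold changes with their standard error (SE) from edgeR's quasi-likelihood fit of each experiment. A gene is said to be called where that test gave a Benjamini-Hochberg adjusted p under 0.05 and a fold over 2.

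*H19* lies on the minus strand of chromosome 7 (GRCm38, 142575529 to 142578143). Its counts in the 5 *Cebpa* fl/fl mice of HFCFD2W were 2, 4, 9, 6 and 1, and in the 5 *Cebpa* ΔHep mice 16, 42, 44, 65 and 22. In HFCFD8W+T10D they were 4, 2, 0, 1 and 7 in *Cebpa* fl/fl and 146, 208, 50, 51 and 141 in *Cebpa* ΔHep,ERT2 mice. The 5 controls of HFCFD12W+T10W held 2, 1, 1, 0 and 3 counts and the 5 *Cebpa* ΔHep,ERT2 mice 201, 188, 73, 260 and 208. The groups did not overlap in any of the 3 experiments, and the knockout means stood at 4.76 ± 2.52, 11.1 ± 5.14 and 16.3 ± 6.34 CPM (SD, n = 5). The log2 fold change was 2.95 (SE 0.48) in HFCFD2W and 5.13 (SE 0.52) in HFCFD8W+T10D. Without control replicate 5, which held 7 of the 14 control counts of HFCFD8W+T10D, the latter was 5.72. The controls of HFCFD12W+T10W were at the floor, and the summed counts differed 103.0-fold (counting interval 49.8 to 257.0).

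*Igf2* lies on the same strand of chromosome 7, at 142650766 to 142666816. In HFCFD12W+T10W it held 4, 3, 5, 6 and 2 counts in *Cebpa* fl/fl and 118, 82, 60, 133 and 120 counts in *Cebpa* ΔHep,ERT2 mice. That is 0.456 ± 0.191 against 8.95 ± 2.71 CPM, with no overlap and a log2 fold change of 4.32 (SE 0.32). In HFCFD8W+T10D the controls held 1, 3, 3, 4 and 5 counts and the knockouts 3, 8, 17, 16 and 24. Knockout replicate 1 lay among the controls, the gene did not pass the low-count filter there, and the summed counts differed 3.75-fold (counting interval 2.15 to 6.92). In 1 fit of all 30 libraries it was called higher there. *Igf2* passed the filter of that fit only through the knockouts of HFCFD12W+T10W, so this call is no independent support. In HFCFD2W *Igf2* held 1 to 4 counts per control and 1 to 5 per knockout library, a 1.07-fold difference (counting interval 0.444 to 2.65). *H19* was thus above its controls in all knockout groups, while *Igf2* overlapped its controls in HFCFD2W and HFCFD8W+T10D. The mice with most *H19* in HFCFD8W+T10D (replicates 1, 2 and 5) held 3, 8 and 24 counts of *Igf2*. Over the 30 libraries the log2 CPM values of the pair correlated with Pearson's r = 0.65, and with r = -0.07 once group means were removed. These r values are descriptions, since the libraries share 6 group means.

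**Figure D1:**
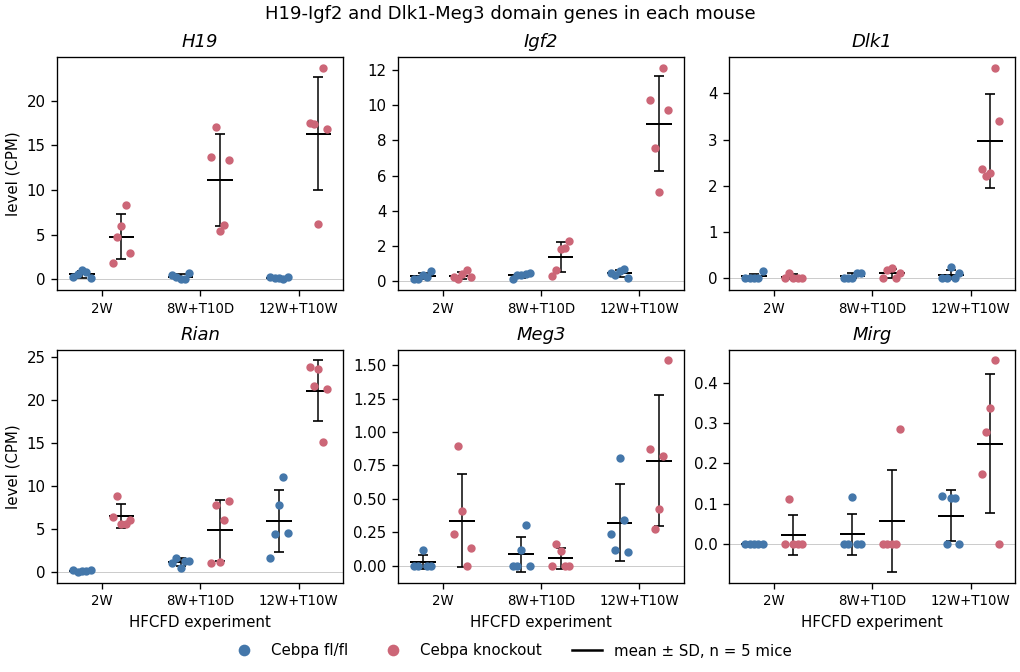
Levels (CPM, linear axes that differ between panels) of the *H19*-Igf2 and *Dlk1*-Meg3 domain genes in each of 30 mice, by HFCFD experiment. Blue points are *Cebpa* fl/fl, red points *Cebpa* knockouts, and black bars the mean ± SD of 5 mice. *H19* knockouts stand above controls in all 3 experiments, *Dlk1* in HFCFD12W+T10W alone, and 2 of the 5 *Rian* knockouts of HFCFD8W+T10D lie among the controls.

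Both genes hold a microRNA in their transcript, miR-675 in *H19* and miR-483 in *Igf2*. Their mature sequences are shown because both host transcripts differed between genotypes in HFCFD12W+T10W. Poly(A) libraries do not measure mature microRNAs, and the annotated microRNA genes Mir675 and Mir483 held 0 counts in all libraries. The sequences are from RefSeq (GRCm38.p6), 5′ to 3′, with the seed (bases 2 to 8) in capitals.
mmu-miR-675-5p: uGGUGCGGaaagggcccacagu
mmu-miR-675-3p: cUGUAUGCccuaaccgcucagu
mmu-miR-483-5p: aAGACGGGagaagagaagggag
mmu-miR-483-3p: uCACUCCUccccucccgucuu
They lie on the minus strand at chr7:142577112-142577133, chr7:142577078-142577099, chr7:142654968-142654989 and chr7:142654932-142654952. The 4 seeds differ from each other.

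The genes of the *Dlk1* domain lie on the plus strand of chromosome 12. Several were too low in some groups to say whether they moved together. *Dlk1* (109452823 to 109463336), which encodes a membrane protein of fetal hepatoblasts, was near 0 everywhere except in the knockouts of HFCFD12W+T10W. Those 5 mice held 27, 24, 27, 50 and 42 counts, against 0, 0, 2, 0 and 1 in their controls. All knockouts were above all controls, at 2.96 ± 1.02 CPM, and summed counts differed 44.0-fold from controls at the floor (counting interval 14.8 to 215.2). Control replicate 3 held 2 of the 3 control counts, and without it the fitted log2 fold change went from 5.26 to 6.24. In the other 4 groups no library held more than 2 counts of *Dlk1*, so no difference was detectable at this depth.

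*Rian* (109603940 to 109661716), a long noncoding RNA that hosts small nucleolar RNAs and microRNAs, differed in HFCFD2W already. Its controls there held 2, 0, 1, 1 and 2 counts and its knockouts 54, 79, 41, 44 and 45, with no overlap. Summed counts differed 39.8-fold from controls at the floor (counting interval 18.04 to 109.4). In HFCFD8W+T10D the controls held 9, 13, 4, 13 and 13 counts and the knockouts 11, 94, 11, 51 and 87. Replicates 1 and 3 of those knockouts lay among the controls, and the other three held at least 51 counts. The log2 fold change was 2.08 (SE 0.57), and its call was lost without control replicate 1, 3 or 4 or without knockout replicate 2. In HFCFD12W+T10W the controls themselves held 14, 39, 68, 96 and 45 counts and the knockouts 273, 234, 279, 165 and 262. The groups did not overlap, and the log2 fold change was 1.88 (SE 0.32). Of those knockouts low in *Rian* in HFCFD8W+T10D, replicate 3 also had the fewest *H19* counts (50) but 17 of *Igf2*, and replicate 1 the fewest *Igf2* counts (3) but 146 of *H19*. *Cebpa* counts of the 5 knockouts in that experiment were 162, 305, 199, 109 and 117 in replicate order.

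*Rian* carries 3 microRNA hairpins with 6 mature microRNAs in RefSeq, shown here because *Rian* was the member with the highest level per transcript length in the knockouts of HFCFD2W and HFCFD12W+T10W. Seeds are in capitals, and the microRNAs themselves were not measured.
mmu-miR-341-5p: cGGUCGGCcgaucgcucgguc
mmu-miR-341-3p: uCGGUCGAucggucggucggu
mmu-miR-1188-5p: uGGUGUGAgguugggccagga
mmu-miR-1188-3p: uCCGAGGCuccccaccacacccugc
mmu-miR-370-5p: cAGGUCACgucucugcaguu
mmu-miR-370-3p: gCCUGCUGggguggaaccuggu
They run along the plus strand from chr12:109611521-109611541 (miR-341-5p) to chr12:109618305-109618326 (miR-370-3p), and no 2 of them share a seed. Over all members RefSeq gives 41 mature microRNAs with 40 seeds. Of these 26 lie in *Mirg*, where miR-453 and miR-496a-5p share theirs.

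*Meg3* (109541001 to 109571726) and *Mirg* (109729764 to 109749460), the noncoding RNAs on either side of *Rian*, stayed low. *Meg3* held 10, 3, 5, 9 and 19 counts in the knockouts of HFCFD12W+T10W and 2, 1, 7, 3 and 1 in their controls, an overlapping 2.55-fold difference of summed counts (counting interval 1.38 to 5.02). In HFCFD2W its knockouts held 2, 8, 3, 0 and 1 counts against a total of 1 in the controls, a ratio of 12.7 (counting interval 1.93 to 537.4). In HFCFD8W+T10D no library held more than 3 counts of *Meg3*. *Mirg* reached at most 5 counts in any library, and 3.62-fold more in summed counts in the knockouts of HFCFD12W+T10W (14 against 3 counts, counting interval 1.01 to 19.6). Neither gene passed the low-count filter in any fit.

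*Peg3* and *Grb10* are imprinted genes of other domains. *Grb10*, on the minus strand of chromosome 11 (11930508 to 12038683), encodes an adaptor that restrains insulin and IGF receptor signaling. In HFCFD2W it held 17, 16, 28, 14 and 27 counts in *Cebpa* fl/fl and 87, 76, 80, 77 and 30 in *Cebpa* ΔHep mice. In HFCFD12W+T10W it held 28, 22, 28, 24 and 36 counts in *Cebpa* fl/fl and 86, 71, 159, 112 and 132 in *Cebpa* ΔHep,ERT2 mice. The groups did not overlap in either experiment, and the log2 fold changes were 1.63 (SE 0.27) and 1.69 (SE 0.21). In HFCFD8W+T10D the controls ran from 2.74 to 4.40 CPM and the knockouts from 4.51 to 6.50 CPM, also without overlap but with a smaller log2 fold change of 0.48 (SE 0.18).

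*Peg3*, a zinc finger gene on the minus strand of chromosome 7 (6703892 to 6730431), differed by less than 2-fold in each experiment. In HFCFD2W its controls held 5, 8, 14, 9 and 9 counts and its knockouts 16, 15, 17, 13 and 27. On the CPM scale, which takes library size into account, these groups ran from 0.742 to 1.63 and from 1.66 to 3.63 and did not overlap. The log2 fold changes were 0.84 (SE 0.29), 0.19 (SE 0.30) and 0.77 (SE 0.30) in HFCFD2W, HFCFD8W+T10D and HFCFD12W+T10W, and the groups overlapped in the latter 2.

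*Afp*, on the plus strand of chromosome 5 (90490737 to 90508907), encodes alpha-fetoprotein, a major plasma protein of the fetus. Its counts were 12, 14, 13, 14 and 14 in *Cebpa* fl/fl and 26, 18, 16, 15 and 7 in *Cebpa* ΔHep mice of HFCFD2W. In HFCFD8W+T10D they were 29, 20, 7, 11 and 11 in controls and 11, 13, 7, 5 and 5 in knockouts. In HFCFD12W+T10W they were 33, 25, 21, 14 and 14 in controls and 12, 23, 23, 12 and 15 in knockouts. The groups overlapped in all 3 experiments, with log2 fold changes of 0.14 (SE 0.27), -1.12 (SE 0.43) and -0.66 (SE 0.31). Its means were 1.79 and 0.785 CPM in controls and knockouts of HFCFD8W+T10D, and 2.44 and 1.48 CPM in HFCFD12W+T10W. *Afp* was not called in any experiment, although the fit of all 30 libraries called it lower in HFCFD8W+T10D. *Zhx2* and *Zbtb20*, repressors of *Afp* after birth, were both expressed, at group means from 11.5 to 15.7 and from 56.6 to 105 CPM. *Zhx2* had log2 fold changes of 0.12 (SE 0.17), -0.24 (SE 0.19) and -0.29 (SE 0.10), and *Zbtb20* of 0.19 (SE 0.15), -0.38 (SE 0.13) and -0.46 (SE 0.10). In HFCFD12W+T10W the edgeR adjusted p was 0.0256 for *Zhx2* and 0.00172 for *Zbtb20*, both with changes under 2-fold. Neither passed in the other experiments (adjusted p from 0.0591 to 0.692).

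The promoter of *Afp* was the only 1 of the members' 14 promoter windows in RefSeq that held the C/EBP motif TTGCNNAA, searched on both strands within 250 bases before to 50 bases after each start. Of 32851 promoter windows of this length in the table, 10.8% held it. C/EBP factors, which include the *Cebpa* product, bind motifs of this kind. The windows cover 9 members, all but *H19*. The 250 bases before the start are shown for *Afp* (chr5:90490464-90490713), *Dlk1* (chr12:109452573-109452822) and *Rian* (chr12:109603695-109603944), since the last 2 had no match and differed most in their domain. All lie on the plus strand of GRCm38.p6, and capitals mark the motif.
Afp: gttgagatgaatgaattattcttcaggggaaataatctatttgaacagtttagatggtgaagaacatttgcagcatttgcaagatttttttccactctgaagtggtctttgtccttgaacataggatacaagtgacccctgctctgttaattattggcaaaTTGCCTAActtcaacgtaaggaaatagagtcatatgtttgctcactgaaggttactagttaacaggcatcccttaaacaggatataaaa
Dlk1: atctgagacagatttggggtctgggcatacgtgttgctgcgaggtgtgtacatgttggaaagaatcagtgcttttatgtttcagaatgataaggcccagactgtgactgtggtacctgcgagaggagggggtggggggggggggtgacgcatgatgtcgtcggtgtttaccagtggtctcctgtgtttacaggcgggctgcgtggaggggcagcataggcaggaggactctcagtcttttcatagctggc
Rian: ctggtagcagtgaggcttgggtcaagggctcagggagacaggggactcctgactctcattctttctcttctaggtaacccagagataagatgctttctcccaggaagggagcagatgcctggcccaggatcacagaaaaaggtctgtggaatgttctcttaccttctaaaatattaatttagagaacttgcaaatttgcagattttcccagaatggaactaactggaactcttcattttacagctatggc
The match of *Afp* starts 89 bases before the RefSeq start, which itself lies before the GENCODE start given above. A match describes letters and does not show binding, and no binding was measured here.

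**Figure D2:**
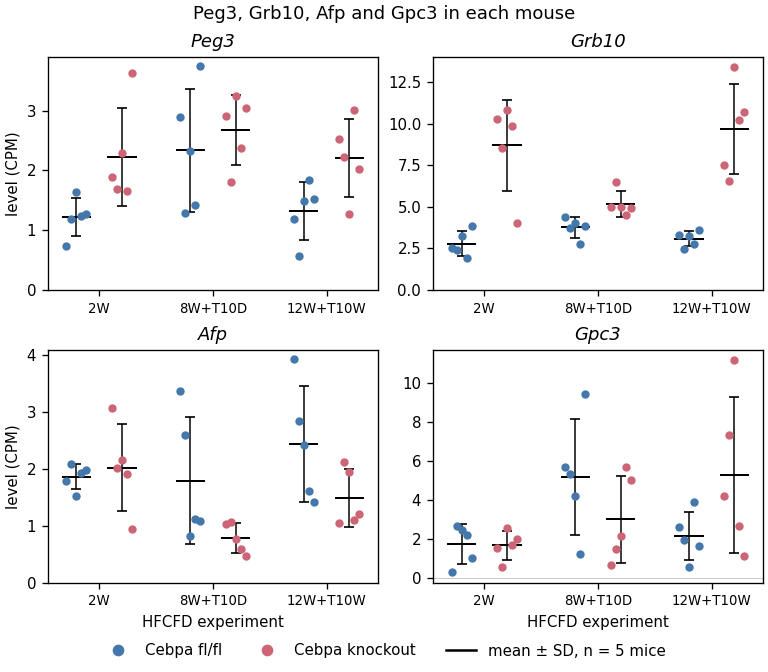
Levels (CPM, linear axes that differ between panels) of *Peg3*, *Grb10*, *Afp* and *Gpc3* in each of 30 mice, by HFCFD experiment. Blue points are *Cebpa* fl/fl, red points *Cebpa* knockouts, and black bars the mean ± SD of 5 mice. *Grb10* knockouts stand above all controls in each experiment, whereas *Afp* and *Gpc3* overlap in all 3.

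*Gpc3*, on the minus strand of the X chromosome (52272426 to 52613950), encodes a heparan sulfate proteoglycan used as a marker of hepatocellular carcinoma. It spread widely within groups. In HFCFD2W it held 2, 18, 21, 16 and 7 counts in controls and 13, 5, 19, 13 and 15 in knockouts. In HFCFD8W+T10D it held 49, 41, 36, 12 and 96 counts in controls and 7, 18, 20, 48 and 53 in knockouts. In HFCFD12W+T10W it held 22, 17, 5, 34 and 16 counts in controls and 48, 79, 132, 29 and 14 in knockouts. The genotypes overlapped in all 3 experiments, and the log2 fold changes were -0.09 (SE 0.45), -0.80 (SE 0.54) and 1.36 (SE 0.56). Of all 12964 genes in the fit of 30 libraries, those most like *Gpc3* by Pearson's r of log2 CPM were *Msln* (r = 0.92), *Gpm6a* (0.90) and *Sulf1* (0.90). *Msln*, which encodes mesothelin, and *Gpm6a* mark the mesothelium that covers the liver. *Sulf1* encodes a sulfatase acting on heparan sulfate.

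The likeness of *Gpc3* to mesothelial genes held within groups, and was examined further with a list of 8 mesothelial markers chosen after these values were seen (*Msln*, *Gpm6a*, *Upk3b*, *Upk1b*, *Lrrn4*, *Wt1*, *Muc16* and *Bnc1*). All 8 had counts in every group. With group means removed, r with *Gpc3* over the 30 libraries was 0.91 for *Msln* and ran down to 0.70 for *Wt1*. The summed level of the 8 markers gave r = 0.95 and Spearman's rho = 0.96, r = 0.94 without the 2 libraries farthest from the median sum, and r = 0.93 with group means removed. The sum holds *Msln* and *Gpm6a*, picked for their r with *Gpc3*, so a high r of the sum was built in. The 6 other marker lists were not picked that way. Their r with group means removed was 0.47 for hepatocyte, 0.38 for stellate and mesenchymal, 0.04 for cell cycle, 0.03 for endothelial, 0.01 for biliary and -0.23 for macrophage markers. With group means kept, these were -0.10, 0.51, 0.39, 0.25, 0.34 and 0.30 in the same order. The mouse with most *Gpc3*, knockout replicate 3 of HFCFD12W+T10W at 11.1 CPM, also had the highest mesothelial sum, 121.9 CPM, where the other 4 of its group ran from 11.6 to 34.1 CPM. The mouse with least *Gpc3*, control replicate 1 of HFCFD2W at 0.297 CPM, had a mesothelial sum of 3.12 CPM. These r values describe libraries that share groups and depth, and the part of mesothelial cells in the *Gpc3* level was not tested.

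**Figure D3:**
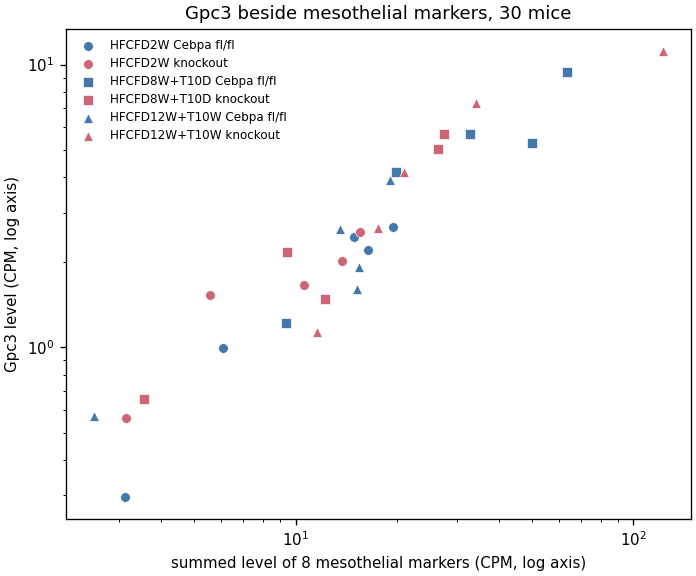
*Gpc3* level against the summed level of 8 mesothelial markers (both CPM, log axes) in 30 mice. Colors mark genotype and symbols the experiment. Mice with a higher sum had more *Gpc3*, across and within groups (r = 0.95 of log2 values over 30 libraries, 0.93 with group means removed). The markers include *Msln* and *Gpm6a*, picked for their r with *Gpc3* in these libraries.

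Of the 10 members, the low-count filter kept 6 with 2 weeks of feeding, 6 with 8 weeks and 8 with 22 weeks. In HFCFD2W *H19*, *Rian* and *Grb10* were called higher, where 1.69% of all 11068 genes tested were called higher and 1.38% lower. In HFCFD8W+T10D *H19* and *Rian* were called higher, where 4.09% of 11990 genes were called higher and 2.01% lower. In HFCFD12W+T10W *H19*, *Igf2*, *Dlk1*, *Rian* and *Grb10* were called higher, where 14.3% of 12463 genes were called higher and 3.47% lower. No member was called lower. All knockouts lay above all controls for 6.33%, 6.01% and 19.6% of the genes tested in these 3 experiments. Since the members were chosen on these contrasts, nothing is read from their counts.

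Other imprinted genes, from the members' domains and from other domains, were examined as a list of 57. Of these 26, 31 and 31 were tested in HFCFD2W, HFCFD8W+T10D and HFCFD12W+T10W, and their median log2 fold changes were 0.01, 0.03 and 0.06, against 0.01 over all genes tested in each experiment. In HFCFD2W 1 was called higher and 1 lower, where 1.69% of all genes tested were called higher and 1.38% lower. *Ddc*, which encodes an amino acid decarboxylase and neighbors *Grb10*, rose from 66.2 to 135 CPM (log2 fold change 1.03, SE 0.14, edgeR adjusted p = 3.64e-04). *Osbpl5*, which encodes a lipid transfer protein, fell by 1.19 on the log2 scale (SE 0.28, edgeR adjusted p = 0.0114). The call of *Ddc* was lost without control or knockout replicate 3. In HFCFD8W+T10D *Cdkn1c* alone was called, with a rise of 1.65 (SE 0.44, edgeR adjusted p = 0.0216) that was lost without knockout replicate 2. Of all genes tested there, 4.09% were called higher and 2.01% lower. *Cdkn1c* encodes a cell cycle inhibitor in the domain next to *H19* and *Igf2*. In HFCFD12W+T10W 5 of the 31 tested were called higher and 1 lower. This is close to the shares of all genes tested, 14.3% higher and 3.47% lower. *Cdkn1c* rose by 1.23 (SE 0.25, edgeR adjusted p = 0.00115), and *Kcnq1*, a potassium channel gene of the same domain, by 2.43 (SE 0.30, edgeR adjusted p = 3.13e-05). *Plagl1*, *Mest* and *Sgce*, from 3 other regions, rose by 1.11, 1.09 and 1.09 (edgeR adjusted p from 7.99e-04 to 0.00805). *Dio3os*, a noncoding RNA at the far end of the *Dlk1* domain, went the other way, from 4.39 CPM in controls to 0.449 CPM in knockouts (log2 fold change -3.22, SE 0.51, edgeR adjusted p = 1.99e-04). *Dio3os* passed the low-count filter there only through the controls, so the p is no independent support.

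**Figure D4:**
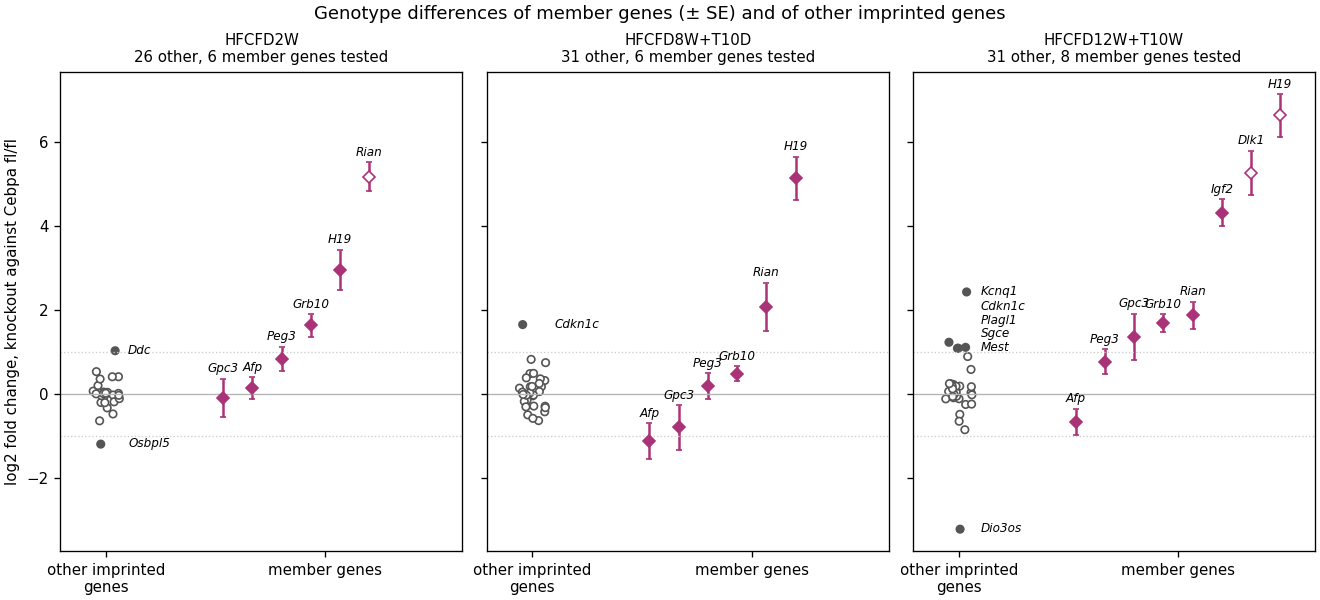
Log2 fold changes of knockout against *Cebpa* fl/fl mice in 3 experiments. Grey circles are other imprinted genes tested (filled and named where called) and purple diamonds member genes with their SE, open where the controls were at the floor, so that the fitted value is no bound. Dotted lines mark 2-fold. *H19* and *Rian* lie above the other imprinted genes in HFCFD2W. Since members were chosen on these contrasts, nothing is read from that distance. *Dio3os* is the lowest in HFCFD12W+T10W.

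A list of 17 other oncofetal and progenitor genes contained 7, 10 and 10 tested genes. It had 3, 6 and 9 genes called higher and medians of 0.76, 1.54 and 3.02 on the log2 scale. Of all genes tested, 1.69%, 4.09% and 14.3% were called higher and 1.38%, 2.01% and 3.47% lower, with a median of 0.01 in each experiment. These shares also stand beside the called genes of the lists below. This list and those below were chosen with earlier results of these data known. *Spink1*, a secreted trypsin inhibitor, rose from 0.364 to 6.16 CPM in HFCFD2W (log2 fold change 4.04, edgeR adjusted p = 1.71e-05). It rose from 0.247 CPM, with controls at the floor, to 22.4 CPM in HFCFD8W+T10D (edgeR adjusted p = 8.74e-05), and by 6.48 in HFCFD12W+T10W (edgeR adjusted p = 4.06e-07). In HFCFD2W and HFCFD8W+T10D *Spink1* passed the low-count filter only through the knockouts, so the p there is no independent support. In HFCFD2W the lipase gene *Lpl* and *Golm1*, which encodes a Golgi membrane protein, rose by 1.87 and 1.65 (edgeR adjusted p = 1.34e-05 and 9.65e-05). In HFCFD8W+T10D *Epcam*, *Lpl* and *Cd24a* were next after *Spink1*, with rises of 2.57, 2.18 and 1.74 (edgeR adjusted p from 3.06e-05 to 0.00499). In HFCFD12W+T10W *Epcam*, *Prom1* and *Cd24a*, which mark progenitor and biliary cells, rose by 4.43, 4.17 and 4.09 (edgeR adjusted p from 6.28e-09 to 1.07e-07). *Spink1* was also the gene most like *H19* over the 30 libraries (r = 0.94), followed by *Gipc2* and *Tinag* (both 0.93). With group means removed these r values were between 0.20 and 0.22.

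Of 21 factors acting on *Afp* or on imprinted loci, 17, 19 and 18 were tested, with medians of 0.06, -0.35 and -0.31. None was called in HFCFD2W by edgeR, although the unadjusted p of 3 was under 0.05. *Uhrf1*, which directs DNA methylation to replicated DNA, rose by 1.23 in HFCFD8W+T10D (edgeR adjusted p = 0.0290), and *Onecut1*, a hepatocyte transcription factor, fell by 1.31 (edgeR adjusted p = 0.0451). In HFCFD12W+T10W *Uhrf1* rose by 2.54 and *Dnmt1*, the maintenance DNA methyltransferase, by 1.02 (edgeR adjusted p = 8.43e-04 and 1.10e-04). Both genes are also expressed with DNA replication, and cell cycle markers were called higher in the same knockouts, whose part in this was not tested.

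Of 16 genes of the IGF axis, 13, 15 and 16 were tested, with medians of 0.07, -0.27 and 0.20. In HFCFD2W 1 was called, *Igfbp1*, an insulin-suppressed IGF-binding protein, which rose from 22.6 to 236 CPM (log2 fold change 3.39, SE 0.48, edgeR adjusted p = 4.88e-04). In HFCFD8W+T10D *Igfbp2* alone was called and fell by 1.30 (SE 0.34, edgeR adjusted p = 0.0192). In HFCFD12W+T10W the protease gene *Pappa*, which frees IGF from its binding proteins, rose from 0.111 CPM, with controls at the floor, to 1.33 CPM (edgeR adjusted p = 4.53e-05). *Pappa* passed the low-count filter there only through the knockouts, so the p is no independent support. *Igfbp7* and the receptor gene *Igf1r* rose by 1.49 and 1.17 (edgeR adjusted p = 3.88e-08 and 4.41e-04). *Igfals*, a liver-made carrier of circulating IGF, fell by 1.33 (edgeR adjusted p = 3.30e-06).

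In livers without Cre the members were compared between experiments in the fit of all 30 libraries, in which 8 were tested. No knockout mouse is on either side of this contrast. *Rian* rose with each step, from 0.167 ± 0.124 CPM in HFCFD2W to 1.16 ± 0.450 in HFCFD8W+T10D and 5.89 ± 3.60 with HFCFD12W+T10W. At the first step it had an edgeR adjusted p = 0.0213, all 5 mice higher than the 5 of HFCFD2W, and 52 against 6 summed counts (counting interval of the ratio 3.01 to 19.9). *Rian* passed the low-count filter of this fit only through groups with more of it, and it was not tested at this step among the 10 control libraries alone, so the p is no independent support. Without the filter the edgeR adjusted p was 0.0199. The second step was a log2 fold change of 2.34 (SE 0.49, edgeR adjusted p = 0.00189), with 4 of 5 mice above the highest mouse of HFCFD8W+T10D. Among the 10 control libraries alone the edgeR adjusted p was 0.00809. In both fits *Rian* passed the low-count filter only through groups with more of it than the HFCFD8W+T10D controls. Those controls held 9, 13, 4, 13 and 13 counts, so neither p is independent support. Without the filter the edgeR adjusted p of this step was 7.86e-04. Among all 12964 genes, 11.1% were called higher and 2.59% lower at the first step, and 1.19% and 1.87% at the second. *Gpc3* was called higher at the first step (log2 fold change 1.56, SE 0.60, edgeR adjusted p = 0.0364). This was lost when HFCFD2W control replicate 1 or 5, or HFCFD8W+T10D control replicate 1, 2 or 5, was left out (edgeR adjusted p from 0.0501 to 0.124). The mesothelial sum ran from 3.12 to 19.4 CPM in the former and from 9.35 to 63.6 CPM in the latter controls, and its part in the *Gpc3* difference was not tested. *Peg3* passed at the first step with a change under 2-fold (log2 fold change 0.93, SE 0.32, edgeR adjusted p = 0.0213), which was lost without HFCFD2W control replicate 1 or HFCFD8W+T10D control replicate 1 or 5. No other member passed at the first step, nor any but *Rian* at the second (edgeR adjusted p from 0.0831 to 0.894). *H19*, *Igf2* and *Dlk1* passed the low-count filter of this fit only through knockout groups with more of them. These 3 genes were not tested among the 10 control libraries alone, so their p does not show equal levels. The labels name no batch, and diet time, age, tamoxifen and any batch between experiments cannot be told apart in these contrasts.

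Per transcript length (TPM, the level RSEM scales by length), the order of the members changed with genotype. In controls of HFCFD2W *Afp* led with 1.09 ± 0.43 TPM, followed by *Gpc3* with 0.796 ± 0.492 and *Grb10* with 0.738 ± 0.442. These neighbors overlapped. In *Cebpa* ΔHep mice of HFCFD2W *Rian* led with 4.28 ± 0.88 TPM and *H19* followed with 2.60 ± 1.35. In HFCFD8W+T10D *Gpc3* led in controls with 2.81 ± 1.72 TPM and *H19* in knockouts with 7.98 ± 4.56 TPM. In HFCFD12W+T10W *Rian* led in both genotypes, with 4.78 ± 2.68 TPM in controls and 22.2 ± 3.56 TPM in knockouts. In those knockouts *H19* (13.6 ± 4.58 TPM), *Igf2* (6.51 ± 2.41), *Gpc3* (4.19 ± 3.12), *Dlk1* (4.07 ± 1.40) and *Grb10* (3.24 ± 0.89) followed, and each overlapped the next in the order. *Afp* stood at 1.29 ± 0.45 TPM, and *Mirg*, *Meg3* and *Peg3* came last at 1.01, 0.650 and 0.412 TPM.

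For the genes most like the other members, r fell once group means were removed. For *Igf2* they were *Ehf*, *Fbn2* and *Krt20* (r from 0.91 to 0.92) and for *Dlk1* *Fbn2*, *Folh1* and *Itgb6* (0.93 to 0.94), with r from 0.04 to 0.25 after group means were removed. For *Grb10* they were *Spp1*, which encodes osteopontin (0.87), *Ttc39a* (0.85) and *Pak6* (0.85). For *Rian* they were *Usp37*, *Pkhd1* and *Tbpl1* (0.83 to 0.85), and *Tbpl1* kept r = 0.53 without group means. For *Peg3* they were *Gm4739*, *Tanc2* and *Reep5* (0.68 to 0.69) and for *Afp* *Cdh2*, *Ociad2* and *Nat8f2* (0.72 to 0.73).

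Markers of other cells moved with genotype beside these genes. Cell cycle markers (6 genes) summed to 5.34 to 7.42 CPM in controls and 7.74 to 16.5 in knockouts of HFCFD2W, 15.1 to 42.5 and 46.0 to 86.3 in HFCFD8W+T10D, and 4.87 to 22.6 and 35.0 to 70.2 in HFCFD12W+T10W. They were called higher for 1 of 2, 5 of 6 and 6 of 6 tested genes, *Top2a* in HFCFD2W, with *Ccnb1* leading by log2 fold change at 1.42 in HFCFD8W+T10D and at 3.00 in HFCFD12W+T10W. Stellate and mesenchymal markers (10 genes) summed to 164 to 358 CPM over all mice of HFCFD2W with none called by edgeR (1 with an unadjusted p under 0.05). They ran from 368 to 656 in controls and 609 to 1228 in knockouts of HFCFD8W+T10D with 2 called higher (*Col1a1* and *Col3a1*). They ran from 327 to 413 and 1302 to 1619 in HFCFD12W+T10W with 6 called higher, led by *Col1a1* (log2 fold change 3.55). Biliary markers (7 genes) had 3, 6 and 7 tested in order of feeding time. They overlapped in HFCFD2W (11.1 to 18.4 CPM over all 10 mice), with none of the 3 tested called by edgeR and 1 with an unadjusted p under 0.05. In HFCFD8W+T10D they ran from 16.3 to 23.2 in controls and 19.8 to 25.7 in knockouts, with *Epcam* called higher and *Krt23* lower. In HFCFD12W+T10W they ran from 12.6 to 22.01 and 47.1 to 76.9 CPM, with 5 called higher, led by *Cftr*, and *Krt23* lower. Macrophage markers (8 genes) had 6, 8 and 8 tested in order of feeding time. Of these, 0, 3 and 4 were called higher by edgeR (5, 7 and 6 with an unadjusted p under 0.05 in either direction). *Gpnmb* had the largest rise in both tamoxifen experiments, and *Timd4* was lower in HFCFD12W+T10W. The list ran from 193 to 267 in controls and 223 to 353 CPM in knockouts of HFCFD2W, 519 to 973 and 863 to 1645 in HFCFD8W+T10D, and 228 to 636 and 617 to 818 in HFCFD12W+T10W. Hepatocyte markers (7 genes) held 102054 to 130243 CPM in controls and 108692 to 158711 in knockouts of HFCFD2W, where *Tat* was called higher. They ran from 104819 to 129013 CPM in controls and from 53309 to 105531 CPM in knockouts of HFCFD8W+T10D, where *Cps1* was called lower. They ran from 89121 to 110606 and 47457 to 57225 CPM in HFCFD12W+T10W, where *Alb* and *Cps1* were lower. Endothelial markers (6 genes) had no gene called by edgeR in any experiment (2, 1 and 2 with an unadjusted p under 0.05) and overlapped between genotypes. No marker of these 6 lists was at 0 in a whole group. The part of these shifts in the levels of *H19*, *Igf2*, *Dlk1* and the other members was not tested.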

How the data were processed

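Poly(A) liver RNA of 30 male mice was measured. The authors deposited RSEM expected counts per gene without normalization and TPM, which RSEM scales by transcript length to the same sum in each library. Reads fitting several genes are split by RSEM. The submitters' processing notes name Trimmomatic 0.36, STAR 2.5.1, Picard 1.84, RSEM 1.2.22 and mm10, with no role given. All 55450 gene identifiers are in GENCODE M21 (GRCm38). Genes overlapping a member held at most 6 counts per library (*Gm49394*, on the strand of *Igf2*).

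Expected counts were rounded (3.25% were not whole). With R 4.3.3, edgeR 4.0.16 was run per experiment (filterByExpr, TMM, quasi-likelihood F test, Benjamini-Hochberg over all genes tested), and in 1 fit of 30 libraries for contrasts between controls. Log2 CPM used a prior count of 2. The steps were tested on simulated data. Alternatives were DESeq2 1.42.0, its size factors, no low-count filter, 1 joint fit, the controls alone, the replicate number as a block and each mouse left out. Members, lists and tests were chosen with earlier results of these data known, and the mesothelial list after seeing *Gpc3* here. Named were all members, the 3 genes most like each, *Zhx2* and *Zbtb20*, and per list and experiment at most 4 called genes with the largest change. The marker lists name the leading called genes only. The authors' CPM and RPKM tables were not used. Library totals ran from 7996123 to 10257347 counts, so a group of 5 libraries with 3 counts or fewer each is at the floor. Replicates are labelled as separate mice.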

Additional observations from a re-analysis of the deposited data

Results flagged for a closer look

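In 2 of the 45 member and group sets examined, a mouse stood apart from the other 4 by Dixon's criterion, which flags about 1 in 20 sets by chance. The first was *Rian* in knockout replicate 3 of HFCFD2W, at 8.87 CPM, where the other 4 knockouts ran from 5.54 to 6.39 CPM. The second was *Grb10* in knockout replicate 2 of HFCFD8W+T10D, at 6.50 CPM, where the other 4 ran from 4.51 to 4.98 CPM.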

How the results depend on the processing

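Members called by edgeR kept their number within 1.5-fold under all alternatives in HFCFD2W (3) and HFCFD12W+T10W (5 to 6, with *Gpc3* the sixth by DESeq2, without the low-count filter and without 3 single mice). In HFCFD8W+T10D 2 were called, 4 in 1 fit of all 30 libraries (with *Igf2* higher and *Afp* lower) and 1 to 2 with a mouse left out. *Igf2* passed the filter of the 30-library fit only through the HFCFD12W+T10W knockouts. Between controls of HFCFD8W+T10D and HFCFD2W 2 were called, 1 in the fit of the 10 control libraries alone, where *Rian* was not tested, and 1 to 3 with a mouse left out. Between controls of HFCFD12W+T10W and HFCFD8W+T10D 1 was called throughout. Other imprinted genes called were 2, 1 and 6 in the 3 experiments in order of feeding time, and 1 to 2, 0 to 1 and 4 to 7 with a mouse left out. Changes that were not called turned sign for *Afp* between controls of HFCFD8W+T10D and HFCFD2W (log2 fold change -0.07, range -0.43 to 0.13 with a mouse left out, above 0 as 0.13, 0.08 and 0.10 without HFCFD8W+T10D control replicate 3, 4 or 5). *Dlk1* between controls of HFCFD12W+T10W and HFCFD8W+T10D turned from 0.48 to -0.48 without HFCFD12W+T10W control replicate 3 (range -0.48 to 0.95). Same-number mice of the 2 genotypes correlated with r from -0.23 to 0.16, which gave no sign of pairing by number but cannot exclude it. With a block for the replicate number, 3, 3 and 5 members were called in HFCFD2W, HFCFD8W+T10D (with *Afp* lower) and HFCFD12W+T10W. DESeq2 size factors moved the median of all genes by at most 0.0248 on the log2 scale. At 7996123 to 10257347 counts per library, folds of genes with under 4 control counts rest on few reads.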
